A study of Mus musculus with 36 samples.

Results

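The hippocampal transcriptome of mice that carry a mutant human APP transgene was compared with that of mice that do not. Membership followed the sample titles: 17 libraries titled APP or APP/Tau were the carriers, and 19 titled Control or Tau were the non-carriers, which together are all 36 libraries of the series. The difference was averaged over Tau status and training, with a mean fitted for each of the 8 genotype-by-training groups. It asks which genes differ with the APP transgene on average over tau genotype and learning history. A call does not require a difference at each tau genotype or in both training states.

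All libraries came from female mice aged 6 months on a C57BL/6 background. The APP transgene carries the Swedish and Indiana mutations (line J9), and the Tau transgene is human tau with the P301S mutation (line PS19). As background, platelet-derived growth factor and prion protein promoters drive these transgenes in neurons, and each allele was studied as 1 line. Carriers and non-carriers alike were bred to hold Pvalb-IRES-Cre and RiboTag (+/-), an allele of the ribosomal protein gene Rpl22 that gains an epitope tag in cells with Cre. The RNA measured was the input fraction, taken from the lysate of both hippocampi before any selection of tagged ribosomes. The carriers were 5 APP naive, 3 APP trained, 6 APP/Tau naive and 3 APP/Tau trained libraries, and the non-carriers were 6 Control naive, 5 Control trained, 4 Tau naive and 4 Tau trained libraries. Every mouse was handled for 3 minutes on 3 days. Naive mice then stayed in the home cage, while trained mice searched for a hidden platform in a water maze in 6 trials on each of 5 days. Their memory was probed 24 hours after the last trial, and tissue was collected 2 hours later.

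As background, App encodes the amyloid precursor protein, which beta- and gamma-secretase cut into amyloid-beta, and the mutations in this transgene raise amyloid-beta production. In the hippocampus, deposited amyloid is known to draw microglia and astrocytes into reactive states. The mouse App gene lies on chromosome 16, whose distal part corresponds to human chromosome 21.

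The libraries held 69.2 to 124.8 M counts (M for mega), with a median of 83 M in carriers and 87.1 M in non-carriers. No label ties a sample to a single animal, and the p-values below therefore measure only variation from sample to sample, some of which may be technical. Mouse App stood at 1398, 1619 and 1837 CPM (counts scaled to the library's size; lowest, median and highest) in carriers and at 1481, 1653 and 1902 in non-carriers. App was not called in edgeR's quasi-likelihood test (log2 difference -0.05, standard error 0.031, Benjamini-Hochberg adjusted p = 0.643), and it does not check the label. Prnp, whose promoter drives the Tau transgene, lay at 846 CPM in the library labelled Tau trained replicate 4, against 1423 to 2142 CPM in the other 16 Tau-labelled libraries. That library was kept under its label, and results it alters are given with and without it. As a check of tissue, markers of dentate granule, pyramidal and interneuron cells summed to at least 680, 1259 and 2115 CPM in every library. Markers of the striatum, which lies beside the hippocampus, summed to 153 to 204 CPM in carriers and 155 to 599 CPM in non-carriers. The 599 CPM were those of a Control trained library, in a group with a median of 176 CPM. Choroid plexus markers varied widely: their summed level ran from 239 to 7011 CPM in carriers (median 3345) and from 214 to 6082 CPM in non-carriers (median 400).

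Of 25382 genes tested, 25 were called at an adjusted p below 0.05 (0.0985% of genes tested), 8 higher (0.0315%) and 17 lower (0.067%) in carriers. Of the 17 lower genes, 11 formed 1 run of neighbours on chromosome 16, and each lay close to 50% of its non-carrier level. The other 14 called genes included Hmox1, Gclm and Gstm1, which act in haem breakdown and glutathione metabolism and were higher, and Kirrel3, a neuronal adhesion molecule, which was lower. An unadjusted p below 0.05 was reached by 2526 genes (9.95%). The median log2 difference of all genes was 0.01, with 52.5% of them above 0. In 8 genes (0.0315% of those tested) the 17 carriers and 19 non-carriers did not overlap in CPM, and all 8 were lower genes of the chromosome 16 run.

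The run was taken to begin with N6amt1 and to end with Cldn8 in the gene order of GRCm38.p6. That build is older than that of the counts and was used for order only. Both ends were chosen with the values known, and none of the 68 genes that follow Cldn8 was tested, so the extent of the run is not settled. The run held 26 genes, of which 14 were tested, and all 14 were lower in carriers by point estimate, 11 of them called. The log2 differences of the 14 genes lay between -1.25 and -0.90 with a median of -1.004, and the 95% confidence interval of each of the 14 held -1. In bulk tissue, less RNA per cell and fewer cells that express a gene cannot be told apart. Of the tested genes, 8 have an entry in the RefSeq promoter table. The window of Cct8 is shown because it holds the starts of a coding and a noncoding gene of the run, both of which were lower. It is at chr16:87495820-87496119 of GRCm38.p6, on the minus strand, and spans 250 bases before the start of Cct8 and 50 from it on. The capitals at its end are the first 50 transcribed bases of Cct8, and those at its beginning are the complement of the first 47 of the long noncoding gene B130034C11Rik, which is read the other way. The windows of both genes share 297 bases, and their starts are 204 bases apart.
Cct8: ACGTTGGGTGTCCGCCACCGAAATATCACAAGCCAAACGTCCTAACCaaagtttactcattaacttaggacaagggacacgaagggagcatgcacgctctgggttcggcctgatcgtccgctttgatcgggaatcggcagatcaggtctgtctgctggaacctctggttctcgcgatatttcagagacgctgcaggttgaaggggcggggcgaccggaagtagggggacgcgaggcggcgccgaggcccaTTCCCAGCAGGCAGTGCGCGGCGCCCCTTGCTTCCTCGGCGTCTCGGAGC

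Usp16 encodes a deubiquitinase that removes ubiquitin from histone H2A. It stood at 12.9, 13.9 and 14.9 CPM (lowest, median, highest) in carriers and at 24.8, 27.7 and 30.3 CPM in non-carriers. The highest carrier lay well below the lowest non-carrier, so the level of this gene alone separated the APP labels. Usp16 fell by 0.99 on the log2 scale (standard error 0.029), to 50.4% of the non-carrier level (95% interval 48.4 to 52.5%), with an adjusted p of 6.22e-23. By group, it averaged 28.4 ± 1.6 CPM (SD, n = 6) in Control naive, 27.8 ± 2.06 (n = 5) in Control trained, 26.9 (n = 4) in Tau naive and 27.5 (n = 4) in Tau trained libraries. In the carrier groups the means were 13.9 (n = 5) in APP naive, 14.3 (n = 3) in APP trained, 14 (n = 6) in APP/Tau naive and 13.6 (n = 3) in APP/Tau trained libraries. The means within the carriers, and those within the non-carriers, lay closer together than the SD of Control trained libraries.

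Cct8, a subunit of the TRiC chaperonin that folds actin and tubulin, stood at 63.1, 69.7 and 78.4 CPM in carriers and at 124, 140 and 156 CPM in non-carriers. It fell by 0.99 (standard error 0.03, adjusted p = 1.25e-22). B130034C11Rik, which starts in the window shown above, stood at 0.315, 0.52 and 0.735 CPM against 0.758, 1.1 and 1.46 CPM. It fell by 1.07 (standard error 0.11, adjusted p = 1.74e-07). Both members of this divergent pair were lower in every carrier than in any non-carrier.

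Ltn1 is the ubiquitin ligase that marks nascent chains on stalled ribosomes. It ranged from 31.2 to 44.1 CPM in carriers (median 35.5) and from 53 to 91.4 CPM in non-carriers (median 71.4), and fell by 1.02 (adjusted p = 1.16e-16). N6amt1, the catalytic subunit of a methyltransferase that modifies a translation release factor, ranged from 8.95 to 11.3 CPM in carriers and from 17.5 to 24.4 CPM in non-carriers. It fell by 1.06 (standard error 0.036, adjusted p = 1.62e-21). Rwdd2b, a gene of little known function, ranged from 3.56 to 5.72 CPM against 7.24 to 9.17 CPM and fell by 0.92 (adjusted p = 1.16e-16). In none of these genes did the groups overlap.

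Bach1 encodes a haem-sensing repressor of antioxidant genes. It stood at 7.09, 8.35 and 10 CPM in carriers and at 14.3, 15.8 and 18.6 CPM in non-carriers, and fell by 0.96 (standard error 0.048, adjusted p = 2.55e-16). Grik1, which encodes the GluK1 subunit of kainate-type glutamate receptors, stood at 5.57, 7.21 and 9.48 CPM in carriers and at 12.1, 14.6 and 18.6 CPM in non-carriers. It fell by 1.02 (standard error 0.064, adjusted p = 1.37e-13). Again no carrier reached the lowest non-carrier in either gene.

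The remaining called genes of the run are predicted or noncoding and low. For 2810407A14Rik the log2 difference was -0.90 (adjusted p = 1.82e-06), with 11 of 17 carriers below the lowest non-carrier. For Gm33207 it was -1.25 (adjusted p = 0.00124), with 13 of 17 below, and for 4930590A17Rik it was -1.18 (adjusted p = 0.0418), with 4 of 17 below. The call of 4930590A17Rik ended without the library labelled Tau trained replicate 4. The tested genes that missed the threshold were Map3k7cl at -0.92 (adjusted p = 0.173), LOC115486002 at -0.91 (0.0718) and Cldn8, a tight junction gene, at -1.03 (0.4). Cldn8 was at 0.263 CPM at most, so the depth left its interval wide, from -1.91 to -0.15. The 12 untested genes of the run had at most 16 counts in a library, and summed to 199 counts over 17 carriers and 287 over 19 non-carriers. The 8 untested genes between Adamts1 and N6amt1 had at most 10 counts, and summed to 38 over the carriers and 83 over the non-carriers. For the 68 genes between Cldn8 and Tiam1 the highest count was 12, and the sums were 73 and 59.

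**Figure D1:**
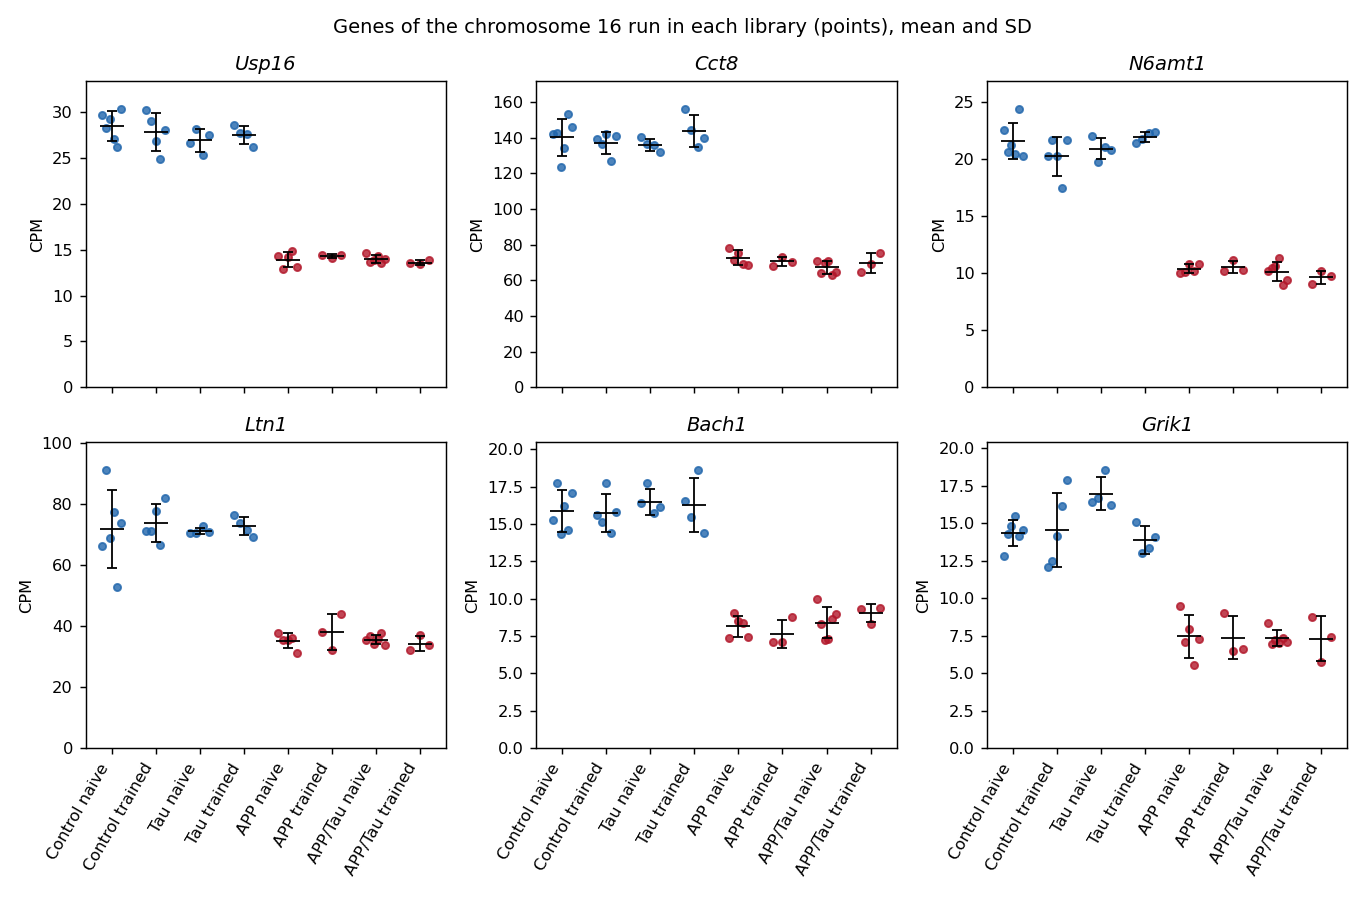
CPM (vertical axes, from 0) of 6 genes of the chromosome 16 run in each library, by group; points are libraries (red for carriers, blue for non-carriers), bars are the mean and SD. Usp16 lay at 12.9 to 14.9 CPM in all 17 carriers and at 24.8 to 30.3 CPM in all 19 non-carriers, and the other 5 genes divide the same libraries.

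On each side of the run, 1 called gene differed by less than the run itself. Before N6amt1, Adamts1, an extracellular matrix protease, stood at 11.2, 14.7 and 20.8 CPM in carriers and at 11.9, 19.2 and 26.4 CPM in non-carriers. It fell by 0.35 (standard error 0.071, adjusted p = 0.0314), and the groups overlapped. Its neighbours Adamts5 (log2 difference -0.20, adjusted p = 0.627) and Gm46558 (-0.46, 0.422) were not called, nor were the 5 genes before it, among them App and Cyyr1 (0.25, 0.287). After Cldn8 come 68 genes of which none passed the filter on low counts, and then Tiam1, an activator of the small GTPase Rac1 in dendritic spines. Tiam1 stood at 92.7, 108 and 128 CPM in carriers and at 108, 136 and 163 CPM in non-carriers, and fell by 0.32 (standard error 0.043, adjusted p = 6.16e-05). All 17 carriers lay below the non-carrier median of Tiam1, and 9 below its lowest non-carrier.

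The 5 tested genes after Tiam1 were not called by edgeR. Sod1, which encodes the cytosolic superoxide dismutase, stood at 0.05 (adjusted p = 0.785), Scaf4, a transcription termination factor, at 0.01 (0.927) and Hunk, a kinase, at -0.11 (0.45). Gm10789 stood at -0.41 (0.173) and Gm52239 at -0.06 (0.946). Of 742 tested genes of chromosome 16 that lie outside the stretch from Adamts1 to Tiam1, 0 were called by edgeR. Of all genes tested 0.0985% were called, so 0 among 742 is near that share. The median log2 difference of the 742 was 0.00. An unadjusted p below 0.05 was reached by 88 of them, where 9.95% of all genes reached it. DESeq2 called 5 of the 742 (Gm10789, Maats1, Nsun3, Phldb2 and Snn, named after their values were seen) and limma-voom 0. Over all genes with an adjusted p they called 78 of 20949 and 19 of 25382. Of 77 tested genes of chromosome 16 whose human counterparts lie on chromosome 21, in a list that holds Cldn8 but none of the run's called genes, 2 were lower (Adamts1 and Tiam1) and 0 higher. Their median was -0.00. The DNA of the run was not analysed here. A response to the transgene and the state of chromosome 16 in the carriers' line cannot be told apart.

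**Figure D2:**
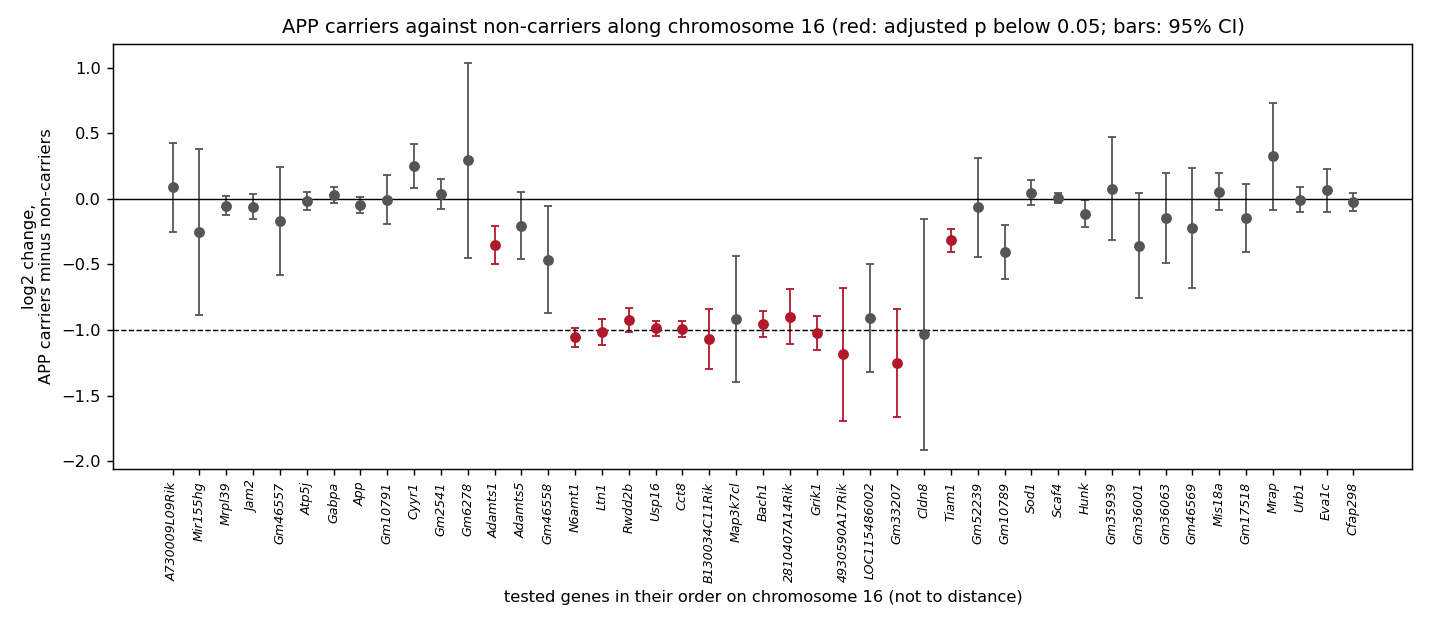
Log2 difference, carriers minus non-carriers (vertical axis), of tested genes in their order along chromosome 16 (horizontal axis, not to distance); points are estimates, bars 95% confidence intervals, red marks an adjusted p below 0.05, and the dashed line is at -1. The 14 genes from N6amt1 to Cldn8 lie between -1.25 and -0.90, while Adamts1 and Tiam1 on either side lie at -0.35 and -0.32.

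The comparison averages 4 strata that share no library: APP against Control and APP/Tau against Tau, each in naive and in trained mice. The 11 called genes of the run were below 0 in all 4 strata, and 7 of them were called in each: Usp16, Cct8, N6amt1, Ltn1, Rwdd2b, Bach1 and Grik1. In naive mice without Tau the 9 called genes were all lower (0.0355% of those tested), in trained mice without Tau all 7 (0.0276%), and in naive Tau carriers all 10 (0.0394%). In trained Tau carriers 122 genes were called (0.481%), 38 higher (0.15%) and 84 lower (0.331%). This last count was 88 when only the groups compared were fitted, 57 higher and 31 lower, with 25 of the 122 genes among them. It was 35 without the library labelled Tau trained replicate 4 and ranged from 17 to 193 as each of the 7 libraries was left out. For Usp16 the 4 log2 differences were -1.03, -0.96, -0.94 and -1.02, and for Bach1 -0.96, -1.03, -0.98 and -0.85, in the order naive and trained without Tau, then naive and trained with Tau. None of the 11 called genes of the run was called by Tau status or by training, with a smallest adjusted p of 0.293 by Tau status (Rwdd2b) and 0.826 by training.

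Partners of the lower genes were examined as lists. As background, Cct8 is 1 of the subunits of TRiC, and prefoldin hands it unfolded chains. Of 16 tested TRiC and prefoldin genes, 1 fell (Cct8) and 0 rose, with a median log2 difference of 0.01 against 0.01 for all genes. Cct2 stood at 115, 128 and 146 CPM in carriers and at 115, 130 and 147 CPM in non-carriers (-0.00, 95% interval -0.07 to 0.06). Tcp1 differed by 0.00 (interval -0.05 to 0.06).

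Of 18 tested genes of ribosome quality control, 1 fell (Ltn1), with a median of 0.00. Nemf, which binds the stalled large subunit together with Ltn1, differed by 0.01 (interval -0.04 to 0.06). Of 11 genes around N6amt1, 1 fell (N6amt1 itself), with a median of -0.02, and its activating partner Trmt112 stood at 0.06 (adjusted p = 0.693). Of 22 genes that add or remove ubiquitin on histone H2A, 1 fell (Usp16), with a median of 0.01. Usp22, another H2A deubiquitinase, had an estimate of -0.07 (adjusted p = 0.314). Of 7 kainate receptor genes, 1 fell (Grik1), with a median of -0.05, and Grik2 stood at -0.05 (adjusted p = 0.706). In each of these lists, the gene of the chromosome 16 run was the single member called. The lists were drawn up around these genes, so that call was known beforehand. Of all genes tested 0.0985% were called, so the lack of further calls in lists this small says little about the partners.

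Bach1 binds, with small Maf proteins, at the antioxidant response element and holds back genes of haem breakdown, iron storage and glutathione synthesis until haem or the activator Nrf2 displaces it, as background. Of 26 such genes tested, 2 were called higher (Hmox1 and Gclm) and 0 lower, where 0.0315% and 0.067% of all genes were. By point estimate 24 of the 26 were above 0, where 52.5% of all genes were, with a median of 0.08 against 0.01 for all genes. An unadjusted p below 0.05 was reached by 10 of the 26, and by 9.95% of all genes. The core of the element, TGACNNNGC, was searched on both strands in promoter windows from 250 bases before to 50 after each start (RefSeq, GRCm38.p6). It was found in 10 of the 21 list members with a window, and in 3781 of 27025 genes with a window (14%). The list was drawn up from known targets of Bach1 and Nrf2, so a higher share in it is not a result of these data. Of the called genes with a window, 2 of 18 (11.1%) held the letters, and of the called higher genes 1 of 5 (20%). Hmox1 has no window in the promoter table. A match of these letters is a description of the window, not a measured site. The windows of Gclm, which was called, and of Prdx1, which had the next smallest p of the list, are shown with the match in capitals, on the minus strand in both, starting 134 and 133 bases before the gene's start. They lie on the plus strand at chr3:122245307-122245606 and chr4:116685349-116685648.
Gclm: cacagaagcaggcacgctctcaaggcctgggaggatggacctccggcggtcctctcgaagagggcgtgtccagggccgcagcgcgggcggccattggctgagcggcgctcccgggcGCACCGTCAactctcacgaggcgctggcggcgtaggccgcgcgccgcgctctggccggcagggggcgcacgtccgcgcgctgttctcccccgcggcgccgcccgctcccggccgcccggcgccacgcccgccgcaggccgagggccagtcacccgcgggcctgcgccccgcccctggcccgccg
Prdx1: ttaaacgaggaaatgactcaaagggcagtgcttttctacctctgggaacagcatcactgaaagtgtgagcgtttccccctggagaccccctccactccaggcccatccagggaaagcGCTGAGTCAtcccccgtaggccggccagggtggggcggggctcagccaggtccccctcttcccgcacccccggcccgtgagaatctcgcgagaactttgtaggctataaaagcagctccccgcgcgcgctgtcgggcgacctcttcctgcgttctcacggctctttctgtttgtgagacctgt

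Hmox1, on chromosome 8, encodes haem oxygenase, which breaks haem into biliverdin, iron and carbon monoxide. It stood at 4.96, 6.79 and 14.2 CPM in carriers and at 3.33, 4.62 and 7.02 CPM in non-carriers. All 17 carriers lay above the non-carrier median, 8 lay above every non-carrier, and the groups overlapped. Hmox1 rose by 0.72 (standard error 0.13, adjusted p = 0.00631), to 165% of the non-carrier level. Its highest values were 14.2 CPM (APP/Tau naive replicate 1), 12.9 CPM (APP/Tau trained replicate 1) and 11.6 CPM (APP/Tau naive replicate 6). These 3 libraries were also among the 4 with the highest summed level of the 32 plaque-responding microglia genes (6372, 6328 and 6042 CPM, in a range of 4036 to 6372 CPM over all libraries), none of which was listed at 0 throughout. The part of these genes' level in the Hmox1 result was not tested. In the 4 strata the log2 difference of Hmox1 was 0.46, 0.56, 0.91 and 0.97, with no stratum passing alone, and the difference by Tau status was 0.43 (adjusted p = 0.511). The call of Hmox1 held in each of 36 fits that left out 1 library and in 10 other settings.

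Gclm, on chromosome 3, encodes the regulatory subunit of the enzyme that starts glutathione synthesis. It stood at 32.7, 35 and 39.3 CPM in carriers and at 27.1, 31.2 and 35.2 CPM in non-carriers, again with 17 carriers above the non-carrier median and 8 above every non-carrier. Gclm rose by 0.16 (standard error 0.03, adjusted p = 0.0154). The adjusted p was 0.063 without APP trained replicate 3 and 0.0876 with choroid plexus markers as a covariate.

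The other members of the list were not called. Prdx1, a peroxiredoxin, stood at 81.4, 95.8 and 121 CPM in carriers and at 75.4, 85.3 and 113 CPM in non-carriers (log2 difference 0.15, adjusted p = 0.284). Slc40a1, the iron exporter ferroportin, stood at 0.14 (0.352), the ferritin heavy chain gene Fth1 at 0.12 (0.378), Nqo1, a quinone reductase, at 0.25 (0.394), and the ferritin light chain gene Ftl1 at 0.44 (0.429). Txnrd1, thioredoxin reductase, stood at 0.04 (0.775), and Keap1, which retains Nrf2, was 1 of the members below 0 at -0.04 (0.55). Beyond the member with the smallest p of a list, such members were named after their values were seen or as members of a list tied to a called gene.

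**Figure D3:**
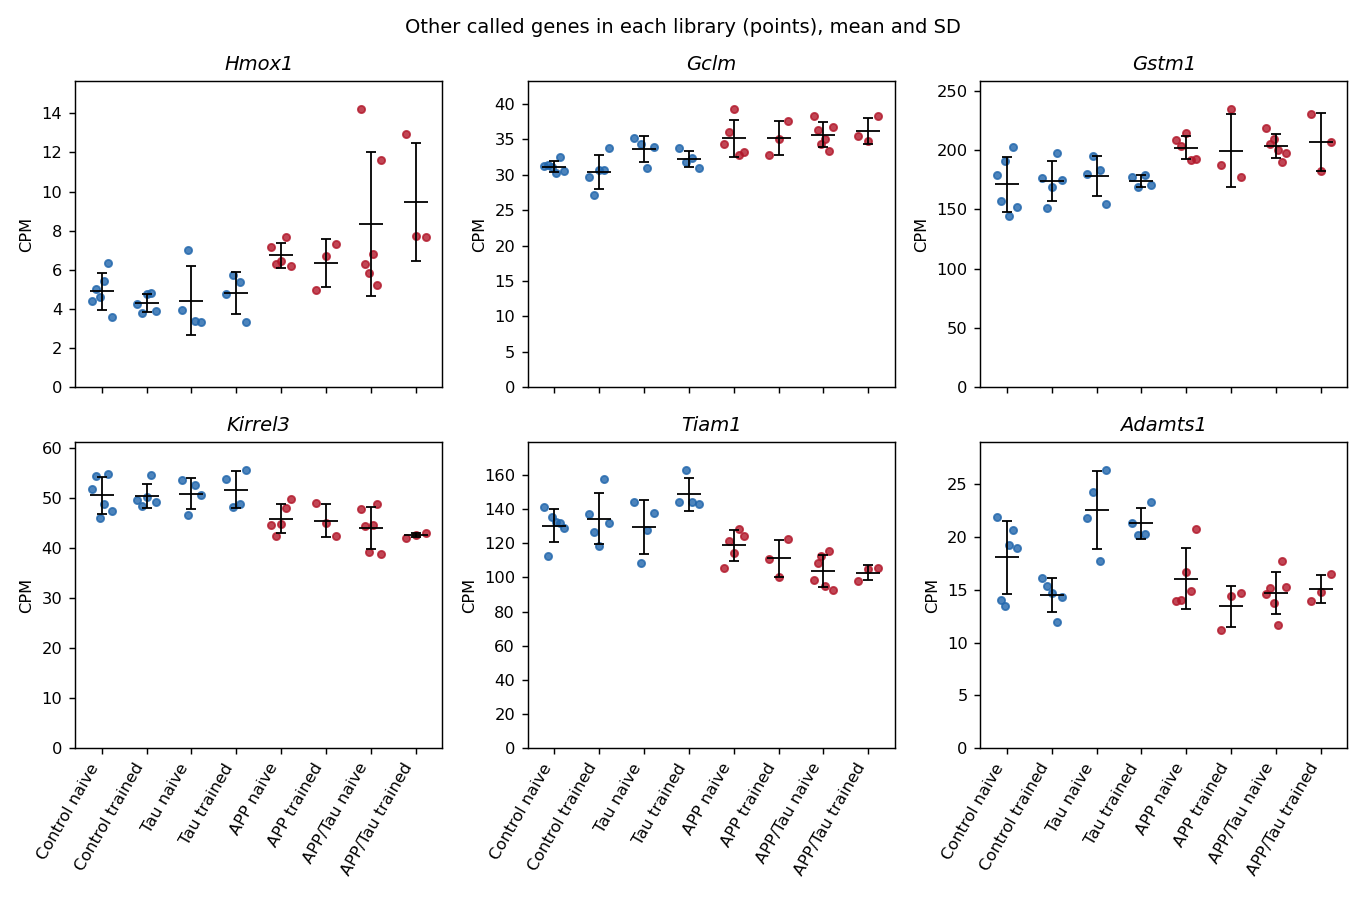
CPM (vertical axes, from 0) of 6 called genes outside the run in each library, by group; points are libraries (red for carriers, blue for non-carriers), bars are the mean and SD. In Hmox1, Gclm and Gstm1 all 17 carriers lie above the non-carrier median while the groups overlap, and Adamts1 is highest in the naive and trained Tau groups.

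Apart from these, 6 genes were higher in carriers. Gstm1, on chromosome 3, encodes a glutathione transferase and stood at 177, 203 and 235 CPM in carriers and at 145, 177 and 203 CPM in non-carriers. It rose by 0.22 (standard error 0.046, adjusted p = 0.0372), with 9 carriers above every non-carrier and log2 differences of 0.24, 0.20, 0.19 and 0.25 in the 4 strata. Trip10, a membrane-bending adaptor of Cdc42, rose by 0.34 (adjusted p = 0.0248), from a median of 5.32 to 6.79 CPM. Atoh8, a basic helix-loop-helix factor, rose by 0.47 (0.0211), from 2.29 to 2.92 CPM. Ggt5, which cleaves glutathione conjugates and leukotriene C4, rose by 0.50 (0.0471), from 1.8 to 2.44 CPM. Dnajb5, a heat shock co-chaperone, rose by 0.21 (0.045), from 130 to 150 CPM, and the pseudogene Rbpj-ps2 by 2.43 (0.0314) at a carrier median of 0.092 CPM. Reads of Rbpj-ps2 may be shared with its parent gene, so its value is uncertain.

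Outside chromosome 16, 4 genes were lower. Kirrel3, on chromosome 9, an adhesion molecule of synapses between mossy fibres and interneurons, stood at 38.8, 44.5 and 49.7 CPM in carriers and at 46, 50.2 and 55.6 CPM in non-carriers. All 17 carriers lay below the non-carrier median and 12 below every non-carrier. Kirrel3 fell by 0.19 (standard error 0.035, adjusted p = 0.00676). Dcaf7, a scaffold of kinases and ubiquitin ligases, fell by 0.14 (0.0326), from a median of 245 to 223 CPM, Klhl23, a Kelch protein, by 0.14 (0.0372), from 64.6 to 59.5 CPM, and Lmo3, a LIM-domain cofactor of neurons, by 0.17 (0.0471), from 179 to 163 CPM. In Dcaf7, Klhl23 and Lmo3 the ranges of the groups overlapped, and 15 or 16 of the 17 carriers lay below the non-carrier median.

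Of the 14 called genes outside the run, 13 had the same sign in all 4 strata, and Dnajb5 was the exception with -0.07 in naive mice without Tau. The called genes were selected on the mean of these same 4 differences, so a shared sign is in part built in. It is a description and no independent support, and the share over all genes is not given. In 12 of the 14 the largest difference was that of the trained Tau stratum, where 8 were called, against 0 in the other strata. Without the library labelled Tau trained replicate 4, 16 genes were called over all strata, 3 higher (Hmox1, Gclm and Atoh8) and 13 lower. The calls that ended were those of Trip10, Rbpj-ps2, Gstm1, Dnajb5, Ggt5, Adamts1, Klhl23, Lmo3 and 4930590A17Rik. With choroid plexus markers as a covariate 14 genes were called, and Hmox1 was the 1 higher gene. No called gene differed with Tau status or with training at an adjusted p below 0.05.

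**Figure D4:**
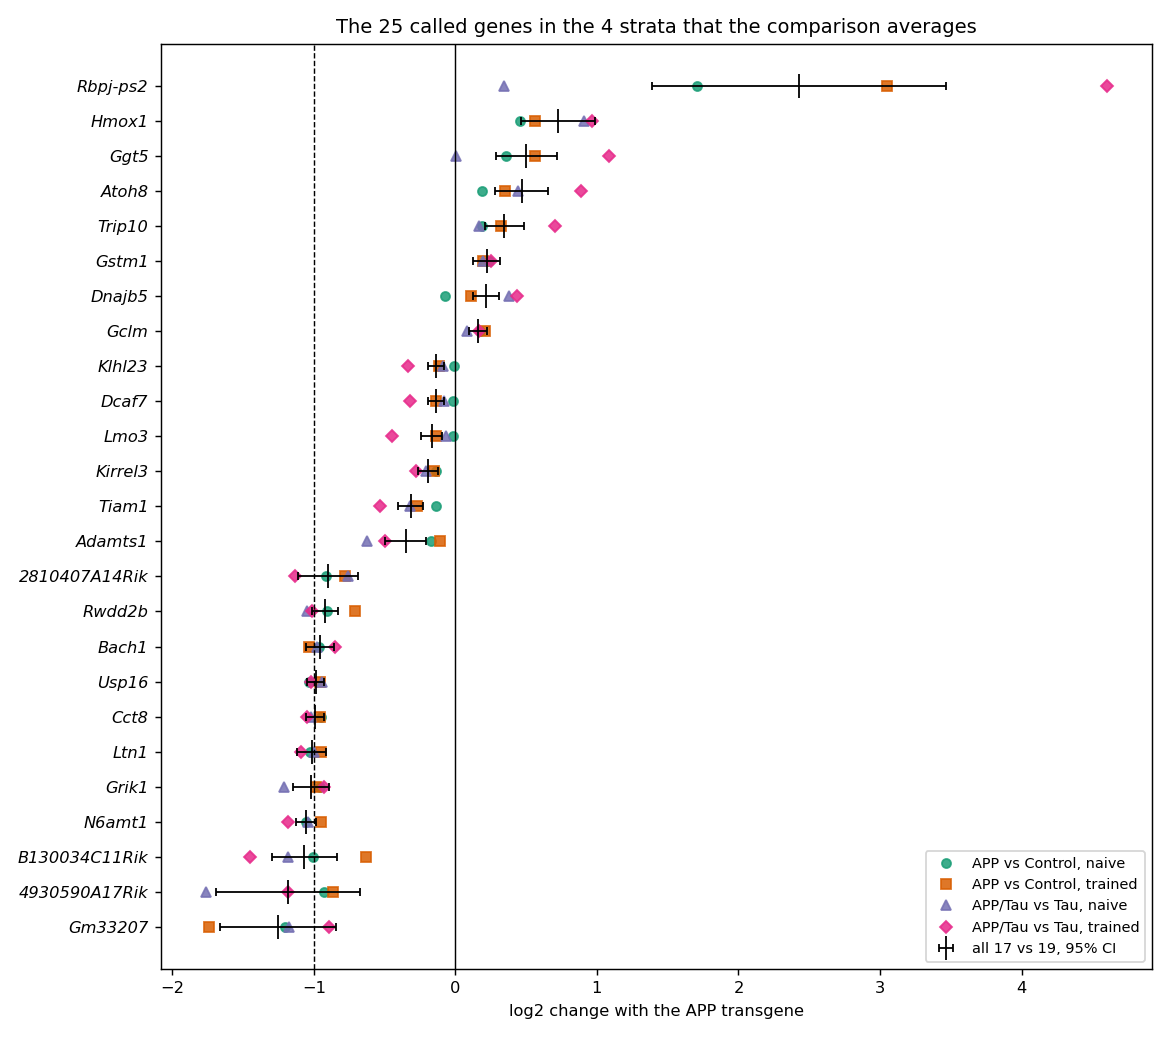
Log2 difference with the APP transgene (horizontal axis) of the 25 called genes in each of 4 strata (coloured symbols) and over all 17 against 19 libraries (black, with 95% confidence interval); the dashed line is at -1. The chromosome 16 run clusters at -1 in every stratum, while 12 of the 14 other genes lie farthest from 0 in trained Tau carriers (pink), a stratum that includes the library labelled Tau trained replicate 4.

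The difference between the APP effect in Tau carriers and that in mice without Tau was called in 13 genes (0.0512% of those tested), 9 higher (0.0355%) and 4 lower (0.0158%). Dnttip2, a nucleolar transcription cofactor, had a mean of 14.8 CPM in Control naive, 20.9 in APP naive, 16.5 in Tau naive and 12.7 in APP/Tau naive libraries. In trained mice the same genotypes averaged 12.4, 18.4, 22.3 and 10.8 CPM, so the APP mean lay above Control and the APP/Tau mean below Tau in both training states. Its difference of effects was -1.25 (standard error 0.14, adjusted p = 2.65e-06). Phf20, a chromatin reader, and Fmn2, an actin nucleator of neurons, had the same order, with -0.64 (0.000163) and -0.67 (0.000319). Averaged over all strata these 3 genes stood at -0.09, -0.12 and -0.05 and none was called, so the averaged comparison does not show them. Ncoa5, a nuclear receptor coactivator, had the opposite order (0.32, adjusted p = 0.0272). The count of 13 was 8 without the library labelled Tau trained replicate 4 and ranged from 3 to 262 as single libraries were left out. By training, 1 gene was called (0.00394%): Btn1a1, a butyrophilin, at 2.95 (adjusted p = 0.0203), with group means between 0.0285 and 0.118 CPM. Btn1a1 was not among the calls of DESeq2, limma-voom or the fit without the library labelled Tau trained replicate 4.

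Over the 30 lists with no member called by edgeR, 127 of 684 genes reached an unadjusted p below 0.05, where 9.95% of all genes did. Of the 684, DESeq2 called 3 (Egr1, Npy and Napb) and limma-voom 0. As edgeR called 0.0985% of all genes tested, 0 calls in a list of this size is near that share. Genes of plaque-responding microglia had no member called among 32 tested, with 28 above 0 and a median of 0.24. Their summed level was 4068, 4927 and 6372 CPM in carriers and 4036, 4586 and 5743 CPM in non-carriers, with 4 of 17 carriers above the highest non-carrier and 1 non-carrier below every carrier. Ctsd, the lysosomal protease cathepsin D, had the smallest p (0.33, adjusted p = 0.325). The median of this list was 0.04 without APP/Tau trained replicate 1 and 0.33 without Tau naive replicate 2, and in the 4 strata it was 0.03, 0.20, 0.21 and 0.40. Interferon-stimulated genes (0 of 30 called, 29 above 0, median 0.25), complement genes (0 of 20, median 0.22), antigen presentation genes (0 of 20, 19 above 0, median 0.18) and reactive astrocyte genes (0 of 26, 23 above 0, median 0.16) had the same pair of libraries at the extremes of their medians. Without APP/Tau trained replicate 1 these 4 medians were 0.12, 0.06, 0.05 and 0.09. In naive Tau carriers the interferon and antigen presentation medians were -0.09 and -0.15. Homeostatic microglia markers had a median of 0.09 with 0 of 20 called, and astrocyte markers 0.02 with 0 of 14 called. Endothelial markers, 18 of 18 above 0 with a median of 0.15 and 0 called, had a median of -0.11 in naive Tau carriers, and their part in these results was not tested.

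Immediate early and activity-regulated genes had 0 of 37 called, 34 above 0 and a median of 0.17, and 21 reached an unadjusted p below 0.05, where 9.95% of all genes did. Egr1, a transcription factor induced by neuronal firing, stood at 103, 160 and 229 CPM in carriers and at 79.5, 115 and 224 CPM in non-carriers (0.48, adjusted p = 0.173). Fos stood at 11, 20.5 and 36.8 CPM against 3.55, 13.5 and 31.7 CPM (0.85, adjusted p = 0.173). The ranges of both genes overlapped over most of their width. The median of the list was -0.05 in naive mice without Tau and 0.17, 0.27 and 0.25 in the other strata. Heat shock and unfolded protein response genes had 1 of 37 called (Dnajb5), 31 above 0 and a median of 0.08.

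Neuronal lists lay slightly below 0. Dentate granule cell markers had 0 of 16 called, 0 above 0 and a median of -0.11, with Stxbp6, a regulator of vesicle fusion, at -0.21 (adjusted p = 0.173). GABA receptor subunits had 0 of 14 called, 1 above 0 and a median of -0.08. Postsynaptic scaffold genes (0 of 27, median -0.05), presynaptic genes (0 of 33, median -0.04), AMPA, NMDA and metabotropic glutamate receptors (0 of 19, median -0.04), interneuron markers (0 of 24, median -0.06) and pyramidal cell markers (0 of 17, median -0.02) held no call. The median of dentate granule markers was -0.04, -0.05, 0.01 and -0.32 in the 4 strata, that of postsynaptic genes 0.02, -0.00, 0.01 and -0.20, and that of pyramidal markers 0.06, 0.04, -0.02 and -0.12. The last stratum of each includes the library labelled Tau trained replicate 4. Its difference does not rest on that library alone. Dentate granule markers summed to 1004 to 1164 CPM in Tau trained, 762 to 944 in APP/Tau trained and 750 to 1063 in Control trained libraries. Postsynaptic genes summed to 12440 to 14000, 9443 to 11820 and 11830 to 12780 CPM in the same groups. Genes that cleave, sort or degrade App had 0 of 25 called and a median of -0.01. The clusterin gene Clu had their smallest p (0.15, adjusted p = 0.412).

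Choroid plexus markers had 0 of 20 called, but all 20 were above 0 and reached an unadjusted p below 0.05, with a median of 1.27. Their strata medians were 1.12, 1.76, -0.67 and 2.46, so naive Tau carriers went the other way. Summed over the list, Tau naive libraries held 2383 to 6082 CPM and Control trained libraries 266 to 1717 CPM. Tau trained libraries held 326 to 1088 CPM (median 333) and APP/Tau trained libraries 354 to 3991 CPM (median 3717). In this trained Tau stratum 12 of the 14 called genes outside the run had their largest difference. The part of choroid plexus content in that was not tested. Ependymal genes, 16 of 16 above 0 with a median of 0.28 and 0 called, moved with the choroid plexus markers. With the choroid plexus level as a covariate the 11 called genes of the run other than 4930590A17Rik were still called, as were Adamts1, Tiam1, Kirrel3 and Hmox1.

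**Figure D5:**
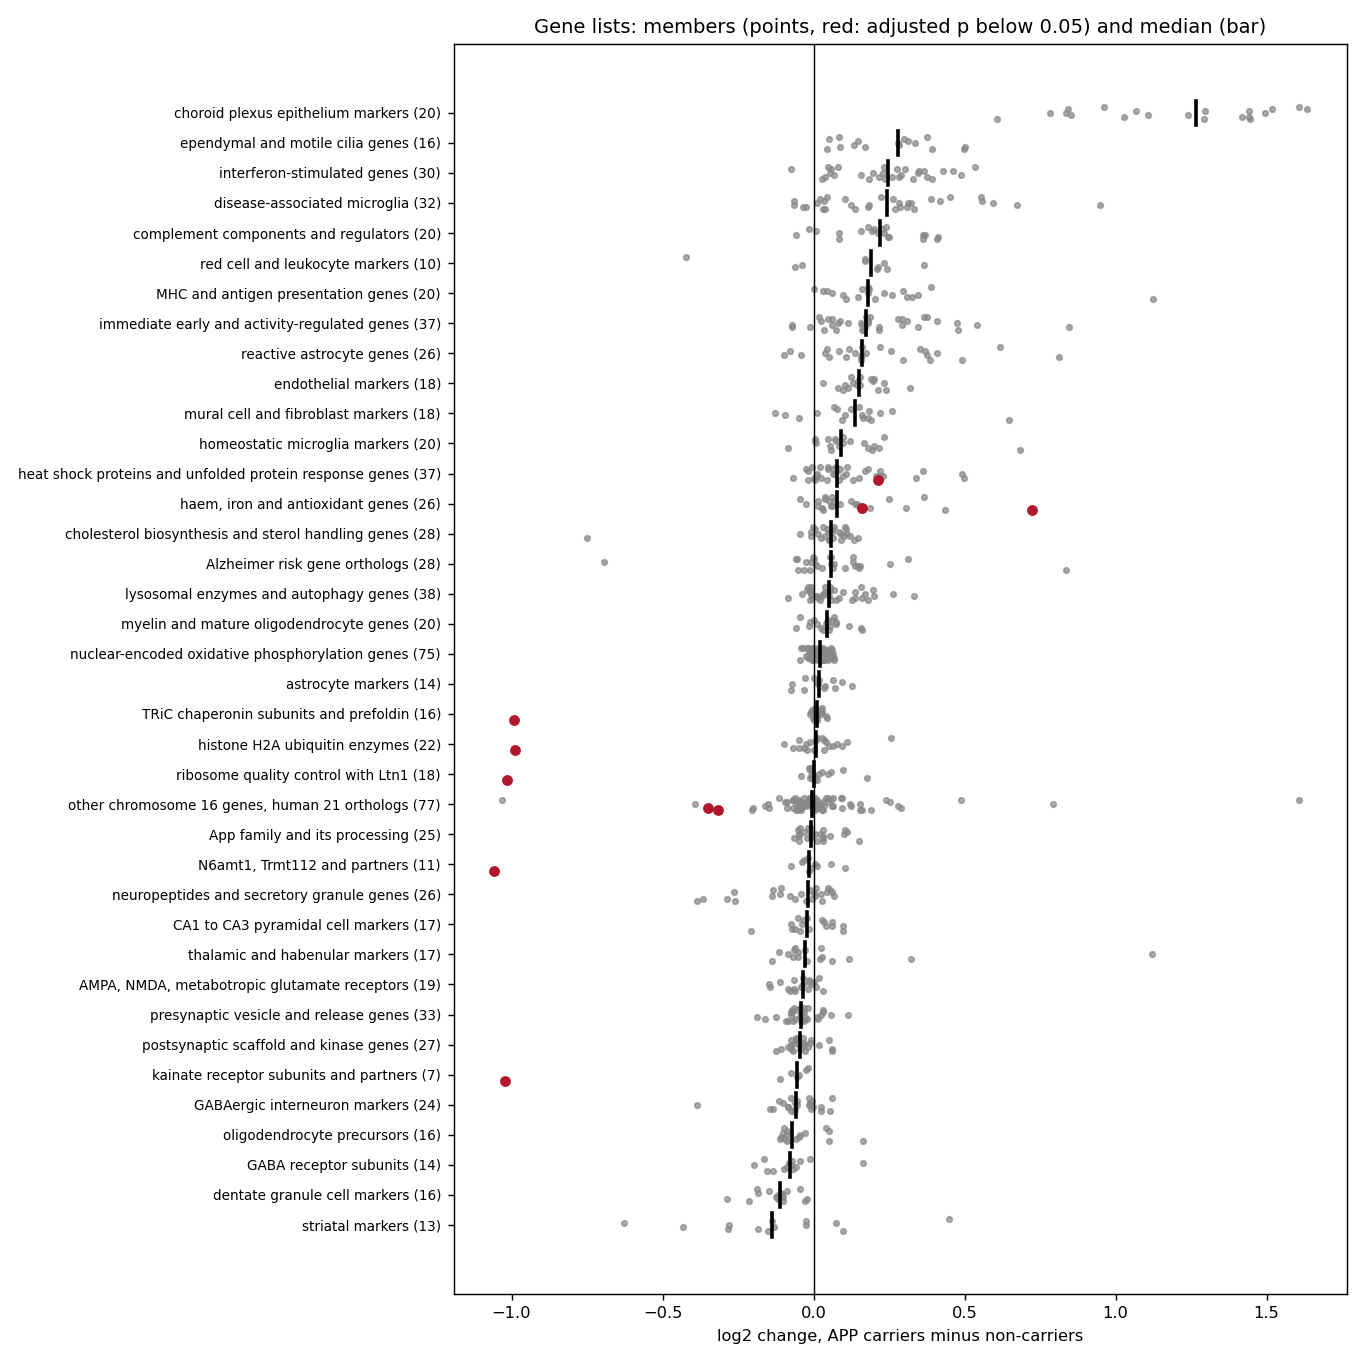
Log2 difference, carriers minus non-carriers (horizontal axis), of the members of 38 gene lists (vertical axis, number tested in brackets); points are genes, red marks an adjusted p below 0.05, and black bars are list medians. The median lies at 1.27 for choroid plexus markers and between -0.14 and 0.28 for every other list, and 30 of the 38 lists hold no called gene.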

How the data were processed

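The values deposited by the authors are raw counts of reads per gene for 36 poly(A) libraries. Trimming was done with Trimmomatic 0.39 and mm39 was the genome build, per the submitters' processing notes. Aligner, counter, annotation and strand setting: not given in the sources used here. Overlapping and antisense genes such as B130034C11Rik are therefore uncertain, as are pseudogenes. Even numbers made up 54.7% of the counts between 1 and 10, as separate counting of both mates would give, which was not tested.

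Genes were filtered with filterByExpr (minimum count 10, total 15), scaled by TMM and tested with edgeR 4.0.16 in R 4.3.3 (glmQLFit, robust, all 36 libraries, a mean per group). Adjustment was by Benjamini-Hochberg over all genes at 0.05. The comparison is the mean of 4 carrier group means minus that of the 4 others. CPM uses TMM-scaled totals. In data simulated for this comparison on 25058 genes, 66% of genes changed 1.2-fold and 98% of those changed 2-fold were recovered, with 10 false among 189 calls. Genes at low levels were left out of the changed set, and each change was the same in every carrier. Differences in tissue content or in labels were not simulated. The recovery therefore does not hold for low genes or for changes limited to some strata. None of the 68 pairs of libraries within a group was identical.

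Named genes were every called gene, 5 tested neighbours on each side of the called chromosome 16 genes, App, Mapt, Prnp, Pvalb and Rpl22 as checks, called members or the smallest p of each list, and the smallest p-values of the interactions. The comparison, the lists and this rule were chosen with earlier results of these data known. The alternatives were size factors by RLE, no filter on low counts, DESeq2 1.42.0, limma-voom (limma 3.58.1), the replicate number as a block, library number or choroid plexus markers as a covariate, an additive model, groups weighted by size, only the groups compared, and leaving out each library. The older quasi-likelihood fit was chosen after seeing the data.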

Additional observations from a re-analysis of the deposited data

Results flagged for a closer look

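In 9 of 180 groups of named genes examined, 1 library stood farther from the rest than Dixon's limit allows, where chance alone gives about 1 in 20. APP trained and APP/Tau trained, with 3 libraries each, were too small for this limit and were not examined. Grik1 was at 8.35 CPM in APP/Tau naive replicate 1 and Tiam1 at 163 CPM in Tau trained replicate 2. Gm33207 was at 0.957 CPM in Control naive replicate 6, Atoh8 at 2.62 CPM in Tau naive replicate 4, and Rbpj-ps2 at 0.0113 CPM in Tau trained replicate 2, where the other 3 libraries of the group had 0. Klhl23 was at 50.7 CPM in APP/Tau naive replicate 6 and 4930590A17Rik at 0.258 CPM in APP naive replicate 1. App was at 1900 CPM in Control naive replicate 5 and Mapt, the mouse tau gene, at 577 CPM in Tau trained replicate 1.

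The APP effect differed with Tau status in a test of the difference itself for 13 genes, as log2 effect in Tau carriers minus effect without Tau. Negative differences were -1.25 for Dnttip2, -0.636 for Phf20, -0.666 for Fmn2 and -0.76 for Sphkap, an anchoring protein of neuronal endoplasmic reticulum. Positive differences were 0.316 for Ncoa5, 1.41 for Gm52771, 2.43 for Gm5278, 0.714 for Ankrd23, 0.304 for Dpf2, 1.06 for Tmem86b, 1.14 for Niban3, 0.391 for Mat2a, which makes S-adenosylmethionine, and 0.745 for Tjap1. The adjusted p-values of edgeR ran from 2.65e-06 (Dnttip2) to 0.0488 (Mat2a and Tjap1). With training, the effect differed for Btn1a1, by 2.95.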

How the results depend on the processing

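None of the 25 called genes changed sign in a setting. The medians of 11 lists did, in 1 to 17 settings each, and that of striatal markers went from -0.14 to 0.13 without Control trained replicate 4. Of the 25 called genes, 13 stayed called in all 36 fits without 1 library and in 10 other settings: Usp16, Cct8, N6amt1, Ltn1, Rwdd2b, Bach1, Grik1, B130034C11Rik, 2810407A14Rik, Gm33207, Tiam1, Hmox1 and Kirrel3. The count of 25 was 78 with DESeq2 and 14 with choroid plexus markers as a covariate. It was 16 without Tau trained replicate 4, APP/Tau trained replicate 1 or APP/Tau trained replicate 2, 15 without Tau trained replicate 1 or APP trained replicate 2, and 15 to 30 over all libraries left out. Of the calls, 32% were higher, and 7.14% with the choroid plexus covariate. The replicate numbers do not pair the samples: of 106 pairs with the same number, 29 correlated above 0.1 (range -0.537 to 0.401), and 7 of 36 libraries correlated best with their own number. With the replicate block, 26 genes were called over all strata, 11 by Tau status and 0 by training, and 8, 8, 10 and 125 in the 4 strata. The 13 genes by Tau status were 6 with RLE size factors, 4 with no filter, 222 with DESeq2, 35 with limma-voom, 3 with library number and 3 with the choroid plexus covariate, and 8 without Tau trained replicate 4 (3 to 262 over libraries left out). The 1 gene by training was lost (0) with no filter, limma-voom, the block, the older fit and without Tau trained replicate 4 (0 to 2 over libraries left out), and DESeq2 called 1 other gene instead, which was lower. Over libraries left out the counts ranged from 7 to 10 in naive and 7 to 11 in trained mice without Tau, and 9 to 12 in naive Tau carriers. With only the groups compared they were 8, 5 and 7. In trained Tau carriers the 122 genes were 88 (25 shared) with only the groups compared, 41 with no filter and 35 without Tau trained replicate 4 (17 to 193 over libraries left out). Where counts moved, the cause was not tested. Depth limits genes such as Cldn8 and Map3k7cl, whose intervals are wide.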

Other observations

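Further lists described across the comparison held no called gene. Lysosomal and autophagy genes had 0 of 38 called, 28 above 0 and a median of 0.05, with Lamp2, a lysosomal membrane protein, at 0.18 (adjusted p = 0.267 in edgeR). Cholesterol genes had 0 of 28 called, 23 above 0 and a median of 0.06, and Ebp, a sterol isomerase, stood at 0.13 (0.296). Nuclear-encoded oxidative phosphorylation genes had 0 of 75 called and a median of 0.02, which was 0.15 in trained mice without Tau and -0.06 in naive Tau carriers. Myelin genes had 0 of 20 called and a median of 0.05, and oligodendrocyte precursor genes 0 of 16 called and a median of -0.07, with Pdgfra, the receptor that marks these cells, at -0.09 (0.402).

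Neuropeptide and secretory granule genes had 0 of 26 called and a median of -0.02, with Npy, neuropeptide Y, at -0.26 (adjusted p = 0.173 in edgeR). Mouse orthologs of Alzheimer disease risk genes had 0 of 28 called, 19 above 0 and a median of 0.06. Markers of tissue beside the hippocampus had 0 of 13 called for striatum (median -0.14) and 0 of 17 for thalamus and habenula (median -0.03). Mural cell and fibroblast markers had 0 of 18 called (median 0.14), and red cell and leukocyte markers 0 of 10 (median 0.19). Pvalb, the gene whose Cre allele all these mice share, stood at 2.6, 13.8 and 18.7 CPM in carriers and at 2.59, 14.4 and 20.7 CPM in non-carriers (adjusted p = 0.894). Rpl22, the gene of the RiboTag allele, stood at 66.1, 71.9 and 84.5 CPM against 65.8, 73.2 and 77.5 CPM (adjusted p = 0.995), and mouse Mapt at 506, 547 and 595 CPM against 510, 545 and 581 CPM (adjusted p = 0.954).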
